A study of Arabidopsis thaliana with 12 samples.

Results

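The genes described here encode 10 enzymes of jasmonate synthesis in Arabidopsis thaliana: the lipoxygenases LOX2, LOX3, LOX4 and LOX6, the allene oxide synthase AOS, the allene oxide cyclases AOC1, AOC2, AOC3 and AOC4, and the 12-oxophytodienoate reductase OPR3. They were chosen by locus as the enzymes that lead from a plastid fatty acid to the precursor of jasmonic acid, and they are 10 of the 33602 genes in the table. RNA had been taken from rosettes of 3-week-old plants grown in soil, and polyadenylated RNA was sequenced in 12 libraries. There were 4 genotypes, each with 3 biological replicates according to the series' design text: ceh1/eds16, ceh1, eds16 and wild-type Col-0. The ceh1 mutation lies in HDS, which encodes the plastid enzyme acting on methyl-erythritol cyclodiphosphate, so that this metabolite accumulates. The eds16 mutation disrupts ICS1, the isochorismate synthase that supplies most stress-induced salicylic acid. The ceh1/eds16 plants carry both mutations, and a whole rosette holds many cell types. In such bulk samples, fewer cells of a type and less RNA per cell cannot be told apart.

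Jasmonates are plant hormones made from linolenic acid in response to wounding, insects and necrotrophic pathogens, and they are also needed for stamen development. In the plastid a lipoxygenase adds oxygen to the fatty acid, AOS dehydrates the product to an unstable allene oxide, and an AOC closes its ring to give 12-oxophytodienoic acid. In the peroxisome OPR3 reduces this compound, beta-oxidation shortens it to jasmonic acid, and JAR1 joins that to isoleucine to give the form that the COI1 receptor binds together with a JAZ repressor. Many of the synthesis genes are themselves known to be induced by jasmonate, and the salicylic acid and jasmonate pathways often restrain each other in leaves.

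Values below are normalized counts, that is, counts of reads scaled by the authors with a size factor for each library. Between 4.99 M and 18.08 M reads fell in genes per library, and all 10 genes passed the filter of a mean normalized count of at least 10, with between 12 reads (LOX4) and 13442 reads (LOX2) in a single library. Differences were tested with limma on log2(normalized count + 1) over 18289 genes, and "called" means a Benjamini-Hochberg adjusted p under 0.05 over all of them. Fold changes are on that log2 scale, which compresses the change where few reads were counted, ± after a log2 fold change is its standard error, and ± after a level is the SD of 3 libraries. As a check of the labels, ICS1 averaged 21.0 ± 7.06 in ceh1/eds16, 666 ± 31.2 in ceh1, 15.2 ± 4.47 in eds16 and 245 ± 27.6 in Col-0 (SD, n = 3 each), low in both eds16 genotypes. HDS averaged 2338 ± 274 in ceh1/eds16, 1589 ± 240 in ceh1, 3683 ± 287 in eds16 and 3765 ± 159 in Col-0, although a point mutation need not alter the transcript. One library, ceh1/eds16 replicate 3, differed from the other 2 of its genotype: without it the number of genes called for the interaction of the mutations was 3013, against 891 with it. Test results on the 10 genes that rest on this library are given both ways. Shares, ratios and correlations are given with all 12 libraries.

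Upstream sequences are shown for LOX4, AOS, AOC1, AOC2 and AOC3, because they carry the results: LOX4 and AOC3 had the largest differences between genotypes, AOS was lower in ceh1 alone, and the AOC genes are tandem copies with unlike values. AOC1, AOC2 and AOC3 lie one after another on the plus strand of chromosome 3, with 1330 bases between AOC1 and AOC2 and 1088 bases between AOC2 and AOC3. Each stretch is the 250 bases before the annotated gene start, written 5′ to 3′ on the gene's strand, from the TAIR10.1 RefSeq assembly. LOX4 is at chr1:27308263-27308512 (plus), AOS at chr5:17099596-17099845 (minus), AOC1 at chr3:9403529-9403778 (plus), AOC2 at chr3:9406419-9406668 (plus) and AOC3 at chr3:9408910-9409159 (plus). Capitals mark matches, on either strand, to any of 7 motifs: the G-box CACGTG and its variant AACGTG, which bHLH factors such as MYC2 can bind, the W-box forms TTGACC and TTGACT of WRKY factors, TGACG of TGA factors, the GCC box GCCGCC of ERF factors, and CGCGTT of calmodulin-binding transcription activators. CACGTG and AACGTG differ in their first letter alone, so that no site can match both.
LOX4: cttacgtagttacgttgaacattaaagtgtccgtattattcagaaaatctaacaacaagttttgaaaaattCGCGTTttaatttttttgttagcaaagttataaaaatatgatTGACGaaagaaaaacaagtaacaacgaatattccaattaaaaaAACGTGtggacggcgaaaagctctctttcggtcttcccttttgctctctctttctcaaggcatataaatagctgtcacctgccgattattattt
AOS: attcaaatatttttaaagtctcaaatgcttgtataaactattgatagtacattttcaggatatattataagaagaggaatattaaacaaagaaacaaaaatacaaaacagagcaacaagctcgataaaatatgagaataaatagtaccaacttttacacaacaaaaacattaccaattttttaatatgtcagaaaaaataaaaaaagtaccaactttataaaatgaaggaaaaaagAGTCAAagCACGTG
AOC1: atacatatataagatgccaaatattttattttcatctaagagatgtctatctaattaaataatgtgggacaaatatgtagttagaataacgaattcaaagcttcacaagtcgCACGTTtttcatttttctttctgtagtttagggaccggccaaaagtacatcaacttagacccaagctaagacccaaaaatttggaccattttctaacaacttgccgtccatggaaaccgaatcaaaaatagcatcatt
AOC2: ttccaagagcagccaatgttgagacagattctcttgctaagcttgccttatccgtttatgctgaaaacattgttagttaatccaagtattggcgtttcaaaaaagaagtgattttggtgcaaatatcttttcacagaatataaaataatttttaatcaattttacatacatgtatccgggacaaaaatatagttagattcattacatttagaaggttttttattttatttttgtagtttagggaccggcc
AOC3: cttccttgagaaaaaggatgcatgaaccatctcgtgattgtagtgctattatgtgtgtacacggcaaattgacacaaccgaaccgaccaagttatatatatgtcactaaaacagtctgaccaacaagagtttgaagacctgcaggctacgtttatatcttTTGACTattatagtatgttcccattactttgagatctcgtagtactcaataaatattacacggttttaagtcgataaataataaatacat

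Among the 10 genes, CACGTG occurred in 1 upstream stretch, that of AOS, where it ended at the last base before the gene start, while 6.5% of 27443 Arabidopsis stretches of the same length held it. AACGTG occurred in 2 of the 10, LOX4 and AOC1, against 7.5% of all stretches, and CGCGTT in 1, LOX4, against 2.6%. TTGACT occurred in 3 (LOX3, AOS and AOC3), against 19.1%, TTGACC in 2 (LOX2 and LOX6), against 12.2%, and TGACG in 2 (LOX4 and LOX6), against 18.6%. GCCGCC occurred in 0 of the 10 stretches and in 1.9% of all stretches. AOC2, AOC4 and OPR3 held none of these letters in this window. AOC1 and AOC2 shared a run of 19 identical bases, tgtagtttagggaccggcc, which began at position -117 from the AOC1 start and at position -19 from the AOC2 start. No other pair of the 10 stretches shared a run of more than 11 bases. At most 2.1% of the 50-base words in the transcript of any of the 10 genes also occurred in another gene, with the highest share for AOC1 and 1.6% for AOC3. Only exact words were compared, so that stretches differing by a single base counted as distinct. How reads were assigned between the copies was not tested.

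**Figure D1:**
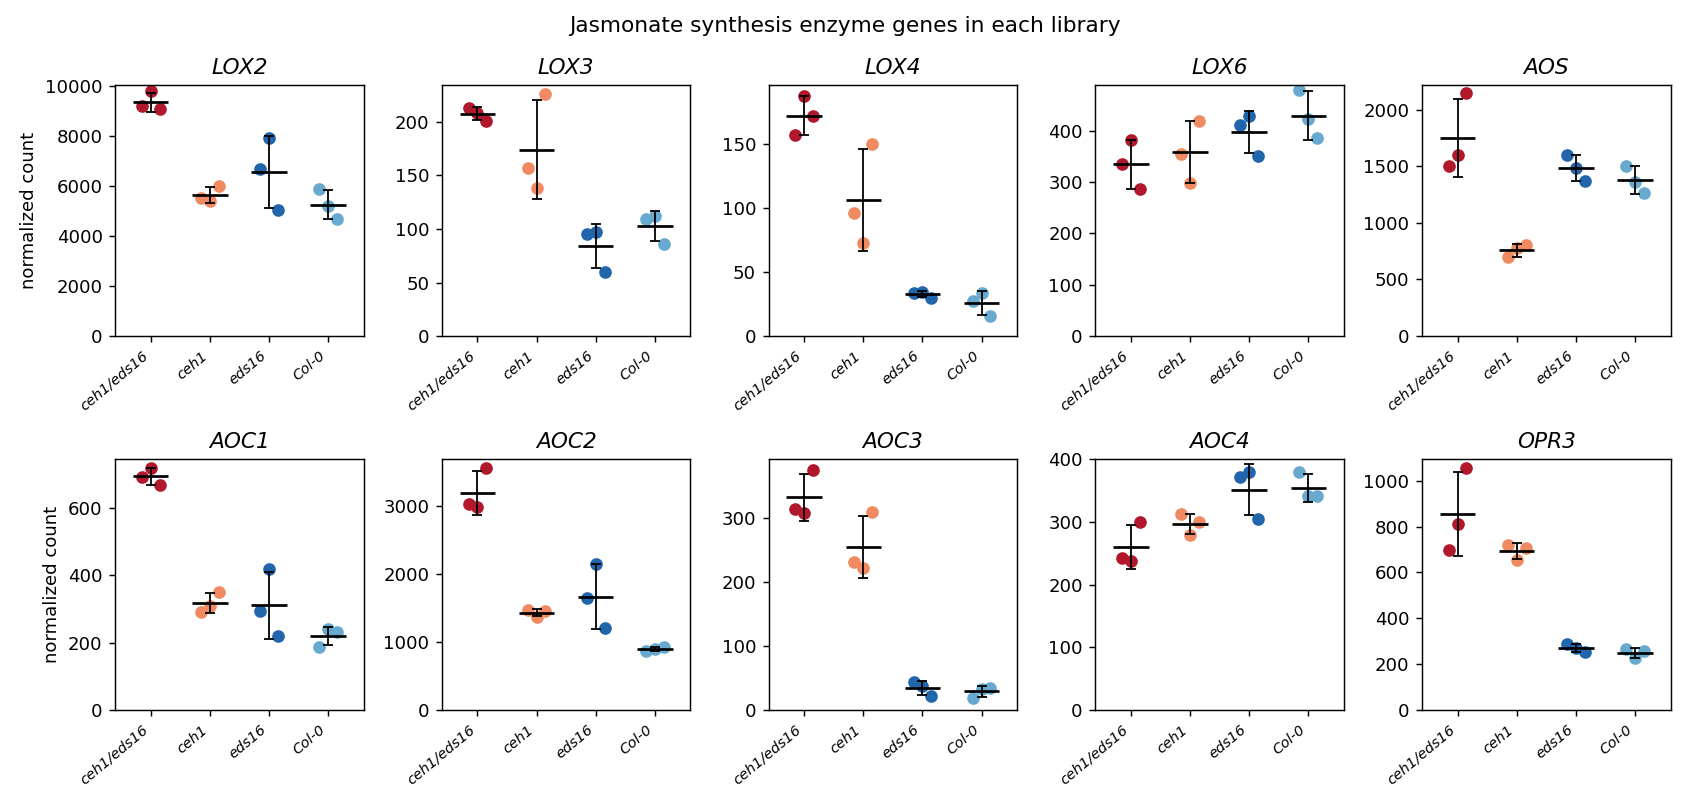
Normalized count (linear axis from 0) of each of the 10 genes in each library, with 1 point per library, a bar at the mean of 3 libraries and an error bar of 1 SD. AOC3, LOX4 and OPR3 were high in both genotypes with ceh1, AOS was low in ceh1 alone, and LOX2, AOC1 and AOC2 were highest in ceh1/eds16.

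The lipoxygenases oxygenate the fatty acid, and their product feeds AOS and other oxylipin branches. LOX2 (AT3G45140, chromosome 3, 16525245 to 16529352, 7 exons), which makes the bulk of jasmonate precursors in wounded leaves, read 9199.8, 9805 and 9083 in ceh1/eds16 and 5544, 5407 and 6021 in ceh1. It read 6692, 7941 and 5064.5 in eds16 and 5884, 5197.5 and 4705 in Col-0. All 3 ceh1/eds16 libraries lay above all 9 others, while ceh1 overlapped Col-0. The LOX2 transcript was 1.45-fold higher in ceh1/eds16 than in eds16 (log2 fold change 0.54 ± 0.15, adjusted p = 0.00697, limma) and 1.66-fold higher than in ceh1 (log2 fold change 0.73 ± 0.15, adjusted p = 0.00354). In ceh1 against Col-0 the log2 difference was 0.11, with a 95% interval of -0.20 to 0.42 (adjusted p = 0.561).

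LOX3 (AT1G17420, chromosome 1, 5977323 to 5981521, 8 exons) and LOX4 (AT1G72520, chromosome 1, 27308513 to 27312756, 6 exons) act together in stamen development and are induced by wounding. LOX4 read 157, 188 and 172 in ceh1/eds16 and 96.1, 72.9 and 150.5 in ceh1, against 33.6, 34.6 and 30.04 in eds16 and 27.3, 33.9 and 15.4 in Col-0. Neither genotype with ceh1 overlapped its own control. LOX4 was 5.13-fold higher in ceh1/eds16 than in eds16 (log2 fold change 2.36 ± 0.27, adjusted p = 1.76e-06) and 4.06-fold higher in ceh1 than in Col-0 (log2 fold change 2.02 ± 0.27, adjusted p = 1.14e-05). LOX3 read 213, 208 and 201.1 in ceh1/eds16, 157, 138.5 and 226 in ceh1, 94.99, 97.1 and 60.1 in eds16, with 109, 112 and 86.3 in Col-0. It too was higher with ceh1 with no overlap, by 2.51-fold in ceh1/eds16 against eds16 (1.33 ± 0.20, adjusted p = 4.61e-05) and 1.66-fold in ceh1 against Col-0 (0.73 ± 0.20, adjusted p = 0.00671).

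LOX6 (AT1G67560, chromosome 1, 25319804 to 25324581, 9 exons), which acts in the early systemic signal after wounding, was called in neither ceh1 comparison. It read 335, 382 and 286 in ceh1/eds16, 355, 298 and 419 in ceh1, 412, 428 and 351 in eds16, with 479, 423 and 385 in Col-0. Each genotype with ceh1 overlapped its control. The log2 difference was -0.25 in ceh1/eds16 against eds16 (95% interval -0.57 to 0.06, adjusted p = 0.189) and -0.27 in ceh1 against Col-0 (-0.59 to 0.04, adjusted p = 0.141).

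AOS (AT5G42650, chromosome 5, 17097564 to 17099595, 1 exon on the minus strand) is a single-copy cytochrome P450 of the CYP74 family, through which all jasmonate synthesis passes. It read 1505, 1598 and 2148 in ceh1/eds16, and 695, 778 and 804 in ceh1. It read 1603, 1486 and 1368 in eds16 and 1507.5, 1365 and 1263 in Col-0. The 3 ceh1 libraries lay below all 9 others, and the other genotypes overlapped one another. In ceh1, AOS was 1.81-fold lower than in Col-0 (-0.86 ± 0.13, with an adjusted p of 6.01e-05 by limma), the only one of the 10 genes called lower there. In ceh1/eds16 against eds16 the log2 difference was 0.22 (95% interval -0.06 to 0.50, adjusted p = 0.200).

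The effect of ceh1 on AOS therefore differed between the backgrounds by 1.08 ± 0.19 on the log2 scale (95% interval 0.68 to 1.48, interaction adjusted p = 0.00367). AOS was also 2.28-fold higher in ceh1/eds16 than in ceh1 (log2 fold change 1.19 ± 0.13, adjusted p = 1.86e-05). The highest AOS value came from ceh1/eds16 replicate 3. Without that library the interaction was 0.92 (adjusted p = 0.00074) and the difference from ceh1 was 1.03 (adjusted p = 3.38e-06), so both were called with and without it. The difference between ceh1/eds16 and eds16 was then 0.06 (adjusted p = 0.677).

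The allene oxide cyclases set the stereochemistry of the hormone and can assemble as mixed trimers. AOC3 (AT3G25780, chromosome 3, 9409160 to 9411090, 2 exons) had the largest ceh1 effect of the 10 genes in both backgrounds. It read 314, 307.5 and 375 in ceh1/eds16 and 231, 222 and 310.0 in ceh1. In the controls it read 43.2, 37.2 and 21.8 in eds16 and 19.02, 32.1 and 34.8 in Col-0. The lowest library with ceh1 was thus far above the highest without it. AOC3 was 9.83-fold higher in ceh1/eds16 than in eds16 (log2 fold change 3.30 ± 0.25, adjusted p = 1.29e-08) and 8.79-fold higher in ceh1 than in Col-0 (log2 fold change 3.14 ± 0.25, adjusted p = 4.16e-08). The ceh1/eds16 and ceh1 libraries overlapped, at a log2 difference of 0.39 ± 0.25 (adjusted p = 0.379).

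AOC2 (AT3G25770, chromosome 3, 9406669 to 9408071, 2 exons), the most abundant cyclase transcript, read 3032, 2995 and 3567 in ceh1/eds16 and 1469.8, 1368 and 1453 in ceh1. It read 1650.4, 2154 and 1206 in eds16 and 867, 897.5 and 926 in Col-0. All 3 other genotypes lay above Col-0 with no overlap, and ceh1/eds16 lay above every other library. AOC2 was higher by 0.97 ± 0.16 in ceh1/eds16 against eds16 (adjusted p = 8.01e-05), by 0.67 ± 0.16 in ceh1 against Col-0 (adjusted p = 0.0020) and by 1.16 ± 0.16 in ceh1/eds16 against ceh1 (adjusted p = 0.000125). In eds16 against Col-0 it was higher by 0.86 ± 0.16 (adjusted p = 0.00543).

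AOC1 (AT3G25760, chromosome 3, 9403779 to 9405338, 2 exons) read 694, 721 and 669.7 in ceh1/eds16 and 292, 309 and 352 in ceh1. It read 295.5, 418 and 219 in eds16 and 188, 241 and 230.5 in Col-0. The ceh1/eds16 libraries lay above all others, and the ceh1 libraries lay above Col-0. AOC1 was 2.31-fold higher in ceh1/eds16 than in eds16 (log2 fold change 1.21 ± 0.18, adjusted p = 3.48e-05) and 2.19-fold higher than in ceh1 (log2 fold change 1.13 ± 0.18, adjusted p = 0.000519). In ceh1 against Col-0 it was higher by 0.53 ± 0.18 (adjusted p = 0.0212), a call that was lost without ceh1 replicate 3 (adjusted p = 0.0734) or Col-0 replicate 1 (adjusted p = 0.101).

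AOC4 (AT1G13280, chromosome 1, 4547388 to 4548894, 2 exons), the copy outside the tandem group, read 243, 237 and 299.7 in ceh1/eds16, 312, 279.6 and 299 in ceh1, 371, 379 and 305 in eds16, with 380.4, 341 and 341 in Col-0. Both genotypes with ceh1 lay below their controls with no overlap. It fell by 0.44 ± 0.13 in ceh1/eds16 against eds16 (adjusted p = 0.0123), and this call was lost without eds16 replicate 1 (adjusted p = 0.0555) or eds16 replicate 2 (adjusted p = 0.0540). In ceh1 against Col-0 the difference was -0.25 ± 0.13 (adjusted p = 0.117). The 4 cyclase genes thus spanned a range from -0.44 to 3.30 on the log2 scale under the same contrast.

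OPR3 (AT2G06050, chromosome 2, 2359114 to 2362375, minus strand, 5 exons), the peroxisomal reductase whose loss makes plants male-sterile, read 698, 813.5 and 1055 in ceh1/eds16 and 721, 655 and 708 in ceh1. It read 286, 271 and 253 in eds16 and 265, 225 and 255 in Col-0. Every library with ceh1 lay above every library without it. OPR3 was 3.12-fold higher in ceh1/eds16 than in eds16 (log2 fold change 1.64 ± 0.14, adjusted p = 5.13e-08) and 2.80-fold higher in ceh1 than in Col-0 (log2 fold change 1.48 ± 0.14, adjusted p = 2.42e-07). Without ceh1/eds16 replicate 3, the highest of the 12 libraries, the first of these was 1.48 (adjusted p = 5.35e-09).

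**Figure D2:**
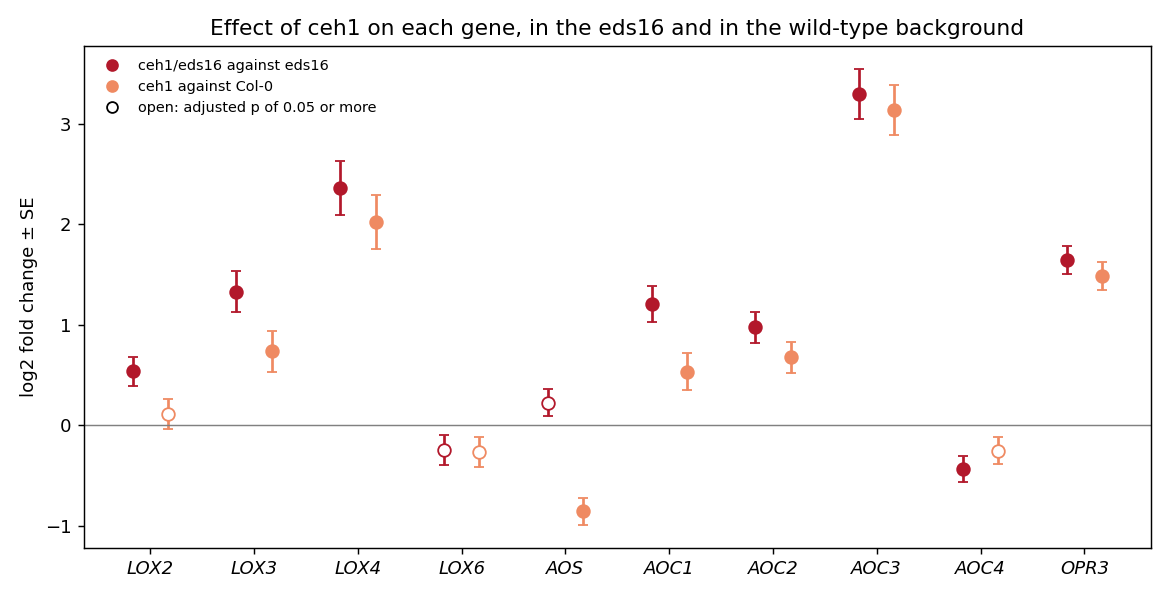
Log2 fold change ± standard error of each gene (limma, n = 3 libraries a genotype) for ceh1/eds16 against eds16 and for ceh1 against Col-0, with open symbols where the adjusted p was 0.05 or more. AOS is the gene whose values part most, at 0.22 and -0.86, while AOC3 stands above 3 in both.

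Set side by side, the ceh1 effects were as follows. In ceh1/eds16 against eds16, 7 of the 10 genes were called higher and 1, AOC4, lower, while 42.3% of all tested genes were called in either direction, 22.1% higher and 20.2% lower. In ceh1 against Col-0, 6 were called higher and 1, AOS, lower, while 50.2% of all tested genes were called, 25.2% higher and 25.0% lower. The median log2 fold change of the 10 genes was 1.09 in ceh1/eds16 against eds16 and 0.60 in ceh1 against Col-0, against medians of 0.005 and 0.008 over all tested genes. LOX3, LOX4, AOC1, AOC2, AOC3 and OPR3 were called higher in both comparisons. These share no library, but both come from 1 model with a common estimate of the spread of each gene. The share of all tested genes called higher in both was not counted. The AOC1 call in ceh1 against Col-0 was lost without ceh1 replicate 3 or Col-0 replicate 1. With a fold change of at least 2 required as well, 5 of the 10 genes (LOX3, LOX4, AOC1, AOC3 and OPR3) were higher and 0 lower in ceh1/eds16 against eds16, where 10% of all tested genes (1836) were higher and 7.49% lower. By the same rule 3 genes (LOX4, AOC3 and OPR3) were higher and 0 lower in ceh1 against Col-0, where 9.96% were higher and 7.05% lower. Scaling to equal library totals instead of the authors' size factors shifted the median of all genes to 0.12 in ceh1/eds16 against eds16 and 0.24 in ceh1 against Col-0, and higher genes then made up 63.9% of the calls in the first (52.2% with the size factors) and 71.9% in the second (50.3%). Under that scaling the 10 genes kept every call, AOS was -0.63 in ceh1 against Col-0 (adjusted p = 0.0004), and in ceh1/eds16 against eds16 AOS was called higher at 0.33 (adjusted p = 0.0360). Under quantile normalization LOX2 was called higher in ceh1 against Col-0 (0.49, adjusted p = 0.0143).

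For the difference between the 2 ceh1 effects, 1 of the 10 genes was called, AOS, while 4.87% of all tested genes were called, 3.08% with a higher and 1.79% with a lower effect in the eds16 background. At an unadjusted p under 0.05 there were 2, AOS and AOC1, a share near the 21.8% of all tested genes at that p. On the recovered reads edgeR and DESeq2 also called AOS alone, while they called 4.81% and 7.47% of all genes with an adjusted p. For AOC1 the 2 effects differed by 0.68 ± 0.25 (adjusted p = 0.135), for LOX3 by 0.59 ± 0.29 (adjusted p = 0.240) and for LOX2 by 0.43 ± 0.21 (adjusted p = 0.242). Without eds16 replicate 2 AOC1 was also called, at 0.91 (adjusted p = 0.0327). For LOX4, AOC3 and OPR3, the genes with the largest ceh1 effects, the differences were 0.34 ± 0.38, 0.16 ± 0.35 and 0.16 ± 0.20. These do not show that the effects were equal: the 95% interval for LOX4, for example, ran from -0.46 to 1.14.

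Loss of ICS1 alone left 9 of the 10 genes uncalled. In eds16 against Col-0, AOC2 was the 1 gene called, while 4.6% of all tested genes were called, 1.63% higher and 2.96% lower, and the median of the 10 genes was 0.18. At an unadjusted p under 0.05 there were 2, AOC2 and AOC1, as 20.2% of all tested genes were. On the recovered reads edgeR and DESeq2 also called AOC2 alone, with 3.18% and 5.49% of all genes called. AOC1 differed by 0.46 ± 0.18 (adjusted p = 0.165) with overlapping libraries, and it was called without eds16 replicate 3 (0.68, adjusted p = 0.0299), the lowest eds16 library for all 10 genes. In the ceh1 background loss of ICS1 went with higher levels: in ceh1/eds16 against ceh1, LOX2, AOS, AOC1 and AOC2 were called higher, while 10.2% of all tested genes were called, 5.93% higher and 4.24% lower. The median of the 10 genes was 0.56, against -0.009 over all tested genes. LOX4, whose libraries did not overlap, differed by 0.75 ± 0.27 (adjusted p = 0.0903, limma) and was called by edgeR (adjusted p = 0.0379), by DESeq2 (adjusted p = 0.0332) and without ceh1 replicate 3, its highest ceh1 library (1.03, adjusted p = 0.0238). This comparison shares the ceh1 libraries with ceh1 against Col-0, and eds16 against Col-0 shares Col-0 with it.

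Levels were compared between genes as normalized counts per kilobase of the longest annotated transcript. LOX2 was the most abundant of the 10 in every genotype, at 2939 ± 122 in ceh1/eds16, 1776 ± 101 in ceh1, 2061 ± 453 in eds16 and 1652 ± 186 in Col-0 (SD, n = 3 each). AOC2 came next in each, at 2460.0 ± 246 in ceh1/eds16, 1100.3 ± 42.1 in ceh1, 1285 ± 365 in eds16 and 689.7 ± 22.7 in Col-0. In Col-0 it did not differ beyond the spread from AOS at 678 ± 60.4, which had rank 3. In ceh1 OPR3 had rank 3 at 444 ± 22.2 and AOS rank 4 at 374 ± 28.0. In ceh1/eds16 AOS at 861 ± 171 had rank 3 again, and AOC1 at 583 ± 21.4 and OPR3 at 547 ± 117 did not differ beyond their spread. LOX4 was the least abundant in every genotype, at 56.6 ± 4.98 in ceh1/eds16, 35.0 ± 13.1 in ceh1, 10.8 ± 0.784 in eds16 and 8.39 ± 3.07 in Col-0. AOC3 had rank 6 in ceh1/eds16 at 200.1 ± 22.4 and rank 7 in ceh1 at 153 ± 29.2, against rank 9 in eds16 at 20.52 ± 6.66 and in Col-0 at 17.2 ± 5.08. It did not differ beyond the spread from AOC4 at 193.6 ± 25.7 in ceh1/eds16, nor from LOX3 at 27.2 ± 6.74 in eds16.

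**Figure D3:**
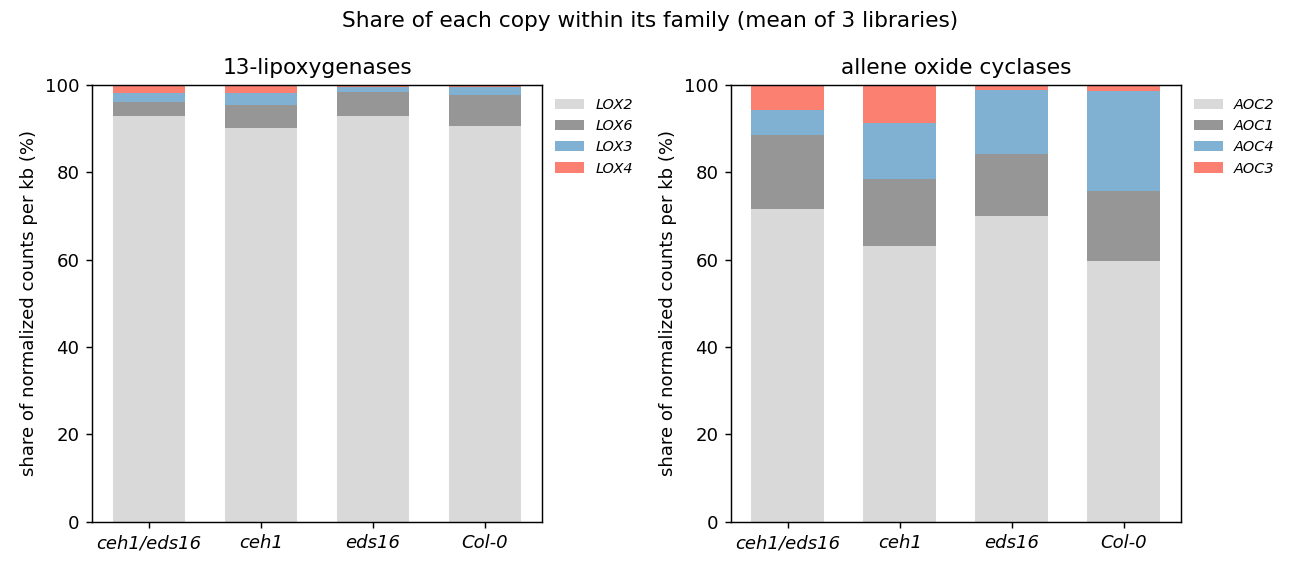
Share of each copy in the summed normalized count per kilobase of its group (percent, mean of 3 libraries), for LOX2, LOX3, LOX4 and LOX6 on the left and the allene oxide cyclases on the right. LOX2 holds by far the largest lipoxygenase share in every genotype, and the AOC4 share is lower and the AOC3 share higher in each genotype with ceh1 than in its control.

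Lipoxygenase shares are of the sum of LOX2, LOX3, LOX4 and LOX6, without LOX1 and LOX5, which are not among the 10 genes. LOX2 held 92.9 ± 0.280% of this summed signal per kilobase in ceh1/eds16, 90.0 ± 1.55% in ceh1, 92.8 ± 0.696% in eds16 and 90.7 ± 0.275% in Col-0. LOX4 held 1.79 ± 0.109%, 1.75 ± 0.520%, 0.495 ± 0.0732% and 0.457 ± 0.153% in that order of genotypes, a small part of the sum throughout. Within the cyclases, AOC2 held 71.5 ± 1.39% in ceh1/eds16, 63.2 ± 1.73% in ceh1, 70.02 ± 1.51% in eds16 and 59.7 ± 0.559% in Col-0. AOC3 held 5.81 ± 0.181% in ceh1/eds16 and 8.76 ± 1.28% in ceh1, against 1.12 ± 0.265% in eds16 and 1.49 ± 0.404% in Col-0. AOC4 held 5.62 ± 0.287% in ceh1/eds16 and 12.7 ± 0.553% in ceh1, against 14.7 ± 2.32% in eds16 and 22.9 ± 2.12% in Col-0. For AOC3 and AOC4 the libraries of each ceh1 genotype did not overlap those of its control.

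**Figure D4:**
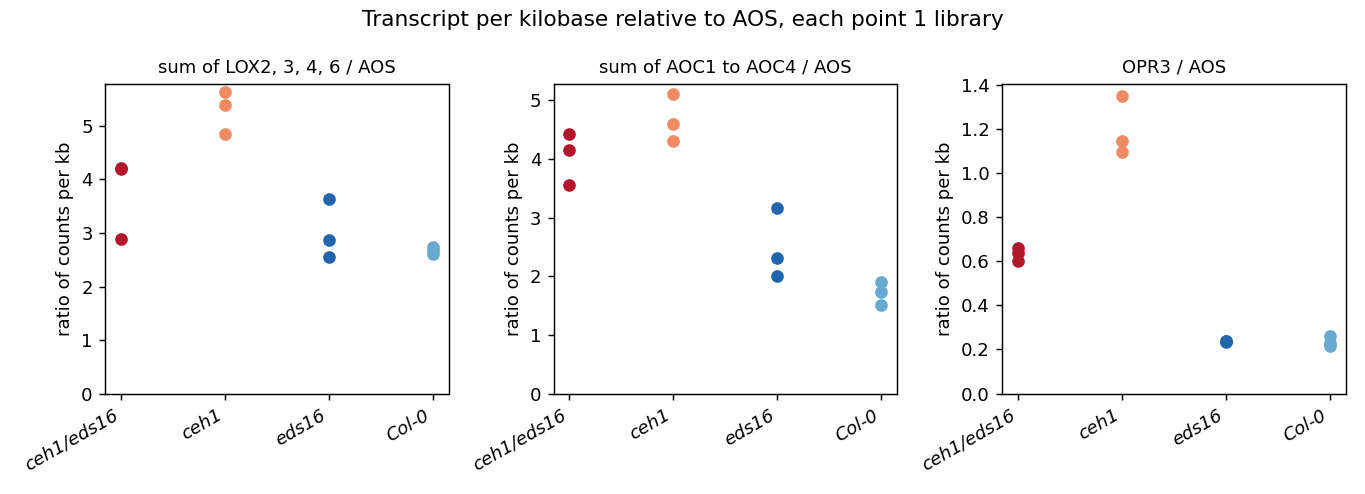
Ratio, in each library, of the summed LOX2, LOX3, LOX4 and LOX6 counts per kilobase, the summed cyclase counts per kilobase and the OPR3 count per kilobase to that of AOS, on linear axes from 0. The highest ratio in each panel belongs to a ceh1 library.

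Relative to AOS, the other steps stood at different levels in the 4 genotypes. The cyclases together stood at 4.05 ± 0.451 times AOS per kilobase in ceh1/eds16, 4.68 ± 0.400 in ceh1, 2.49 ± 0.600 in eds16 and 1.71 ± 0.196 in Col-0 (SD, n = 3 each). LOX2, LOX3, LOX4 and LOX6 together stood at 3.77 ± 0.761 times AOS in ceh1/eds16, 5.29 ± 0.408 in ceh1, 3.02 ± 0.557 in eds16 and 2.68 ± 0.0644 in Col-0. The ceh1/eds16 value depends on replicate 3, which had the lowest ratio, 2.89, where the median was 4.20 and the highest 4.22. In eds16 this ratio ranged from 2.56 to 3.64. OPR3 stood at 0.635 ± 0.0296 times AOS in ceh1/eds16, 1.195 ± 0.134 in ceh1, 0.237 ± 0.00422 in eds16 and 0.235 ± 0.0248 in Col-0. For OPR3 over AOS the ranges were 0.603 to 0.662 in ceh1/eds16, 1.09 to 1.35 in ceh1, 0.232 to 0.240 in eds16 and 0.214 to 0.262 in Col-0, so that both ceh1 genotypes stood clear of all others and of one another. These ratios are between transcripts and were not tested; they say nothing of enzyme amounts or of hormone.

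Across the 12 libraries the 10 genes fell into patterns that can be described by Pearson's r of log2(normalized count + 1), which reflects the 4 group levels more than 12 separate points. AOC3 and OPR3 had r = 0.97, LOX4 and OPR3 0.94, LOX4 and AOC3 0.94, and LOX3 and LOX4 0.92. AOC1 and AOC2 had r = 0.96, and LOX2 had 0.93 with AOC2 and 0.92 with AOC1. AOC3, the remaining gene of the tandem group, had 0.70 with AOC2 and 0.76 with AOC1. AOS had values between -0.24 (with AOC3) and 0.55 (with LOX2), and AOC4 had -0.77 with LOX4. Among 8130 genes with a symbol outside the 10, those most like LOX2 were XBCP3 (r = 0.94), TSA1 (0.93) and HPL1 (0.92). Those most like LOX4 were FKF1, PUB23 and PHI-1 (0.97 each), and those most like AOC3 were NHL3, PMZ and SS2 (0.99 each). Those most like AOS were THI1 (0.97), NPQ1 (0.97) and GOX2 (0.95). THI1, for example, averaged 21162 ± 6963 in ceh1/eds16, 9201 ± 102 in ceh1, 17238 ± 638 in eds16 and 17760.0 ± 1391 in Col-0, low in ceh1 as AOS was.

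Other genes of the pathway were taken from lists with 65 members, of which 58 passed the filter. In ceh1/eds16 against eds16, 36 of the 58 were called higher and 10 lower, and in ceh1 against Col-0, 23 were called higher and 14 lower. Over all tested genes 22.1% were called higher and 20.2% lower in the first comparison, and 25.2% and 25.0% in the second. The shares of the 58 called lower were not above these. The median log2 fold changes of the 58 were 0.56 and 0.16, against 0.005 and 0.008 over all tested genes. Upstream of the lipoxygenases and in side branches, 7 of 12 were called higher and 3 lower in ceh1/eds16 against eds16, and 1 higher and 4 lower in ceh1 against Col-0. The desaturases that supply linolenic acid were among the latter: FAD6 (-0.98 ± 0.10, adjusted p = 4.04e-07), FAD3 (-0.82 ± 0.10, adjusted p = 6.72e-06) and FAD8 (-0.79 ± 0.14, adjusted p = 0.000186) fell in ceh1 against Col-0. FAD6 was also lower in ceh1/eds16 (2523 ± 112) than in eds16 (3882 ± 21.6), and so was FAD3 (967 ± 42.9 against 1283 ± 17.6), both with no overlap. FAD8 averaged 649 ± 134 in ceh1/eds16 and 486 ± 17.9 in eds16.

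HPL1, a hydroperoxide lyase gene, averaged 222 ± 17.1 in ceh1/eds16, 61.0 ± 8.15 in ceh1, 85.7 ± 12.2 in eds16 and 66.2 ± 13.4 in Col-0. It was higher in ceh1/eds16 than in eds16 (log2 fold change 1.37 ± 0.18, adjusted p = 8.07e-06), and its interaction of 1.47 ± 0.25 (adjusted p = 0.00315) was called, as those of AOS, FAD8 (1.18 ± 0.20, adjusted p = 0.00242), PDF1.2A and CLH1 were. HPL1, FAD8, PDF1.2A and CLH1 were the 4 of 58 other genes called for the interaction by limma, each with a positive value. Of all tested genes 4.87% were called, 3.08% with a positive and 1.79% with a negative value. On the recovered reads edgeR called 4 with a positive and 1 with a negative value, and DESeq2 called 7 positive and 2 negative. Among all genes with an adjusted p these tools called 4.81% and 7.47%. Limma called 16 without ceh1/eds16 replicate 3, 9 without ceh1 replicate 3 and 7 without eds16 replicate 3. The same fits called 3013, 1067 and 881 of all tested genes, against 891 with every library. CLH1, a chlorophyllase gene at 0.79 ± 0.19 (adjusted p = 0.0247), was no longer called without any 1 of ceh1 replicate 1 or 2, eds16 replicate 1 or Col-0 replicate 2 or 3 (adjusted p = 0.0523 to 0.0754), or with no trend of variance on level (adjusted p = 0.0631).

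Downstream of OPR3, 5 of 11 genes of peroxisomal import and beta-oxidation were called higher and 1 lower in ceh1/eds16 against eds16, and 2 higher and 4 lower in ceh1 against Col-0. The shares of all tested genes were 22.1% higher and 20.2% lower in the first comparison, and 25.2% and 25.0% in the second. In ceh1 against Col-0 the share of this list called higher was thus below that of all tested genes. OPCL1, the ligase that activates the OPR3 product, averaged 1021 ± 47.9 in ceh1/eds16, 787 ± 50.4 in ceh1, 435.5 ± 68.2 in eds16 and 452 ± 21.4 in Col-0, higher by 1.24 ± 0.12 (adjusted p = 2.68e-07) and 0.80 ± 0.12 (adjusted p = 4.21e-05) with ceh1 in the eds16 and the wild-type background. The thiolase genes parted: KAT5 fell by 1.04 ± 0.11 in ceh1/eds16 against eds16 (adjusted p = 7.43e-07), and KAT2 was higher by 0.57 ± 0.12 (adjusted p = 0.000862). JAR1, which makes the active conjugate, averaged 434 ± 15.6 in ceh1/eds16, 492.5 ± 16.8 in ceh1, 495 ± 30.8 in eds16 and 566 ± 35.2 in Col-0 and was not called in either ceh1 comparison (-0.19, adjusted p = 0.169, and -0.20, adjusted p = 0.131). The methyltransferase gene JMT and the transporter gene ABCG16 fell in both ceh1 comparisons, first against eds16 and then against Col-0, JMT by 2.37 ± 0.39 and 1.92 ± 0.39 (adjusted p = 9.43e-05 and 0.000638) and ABCG16 by 2.47 ± 0.25 and 1.40 ± 0.25 (adjusted p = 5.58e-07 and 0.000259).

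**Figure D5:**
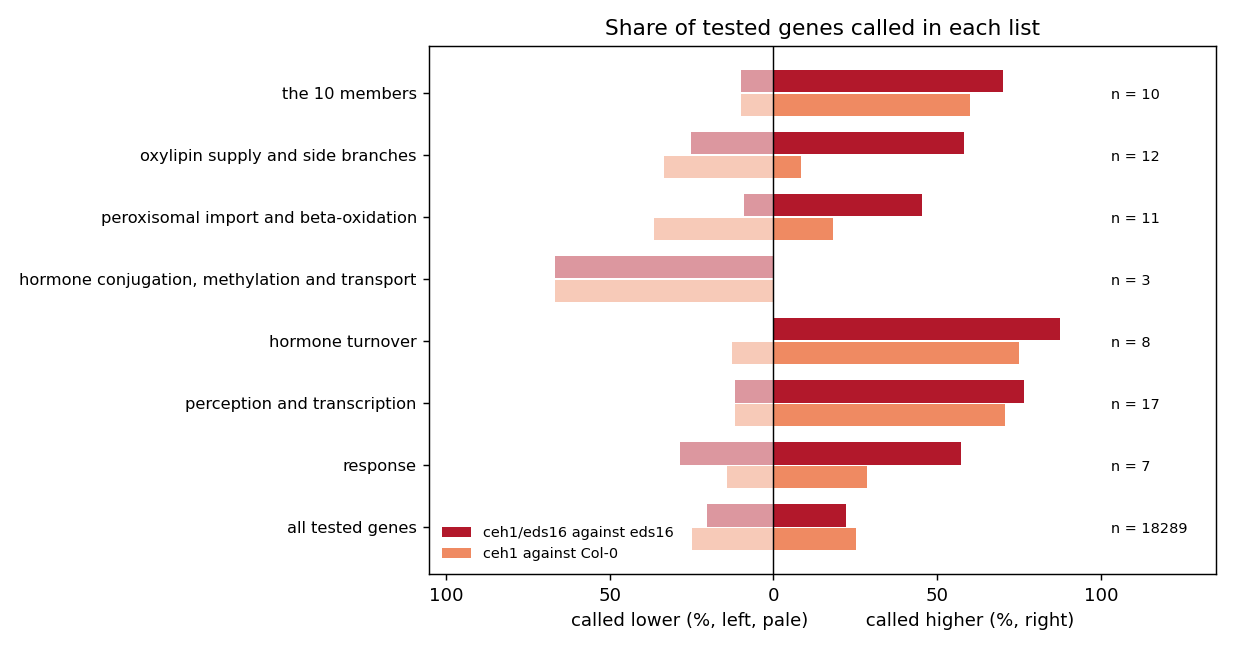
Share of tested genes called higher (right) and lower (left, pale) in each list of jasmonate genes and over all tested genes, for ceh1/eds16 against eds16 and ceh1 against Col-0, with the number tested at the right. The share called higher was above that of all tested genes for the 10 enzymes, for hormone turnover and for perception and transcription in both comparisons. For response genes it was above in ceh1/eds16 against eds16 (4 of 7, against 22.1%) and near it in ceh1 against Col-0 (2 of 7, against 25.2%).

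Hormone turnover removes or inactivates jasmonates, among them the active conjugate. For turnover 7 of 8 were called in ceh1/eds16 against eds16, each of them higher, and in ceh1 against Col-0 6 were higher and 1 lower. Of all tested genes 22.1% were higher and 20.2% lower in the first comparison, and 25.2% and 25.0% in the second. IAR3, an amidohydrolase that cleaves the conjugate, averaged 1270.2 ± 107 in ceh1/eds16, 757 ± 66.7 in ceh1, 305 ± 26.3 in eds16 and 261 ± 13.9 in Col-0, and was higher by 1.53 ± 0.12 in ceh1 against Col-0 (adjusted p = 2.47e-08). JRG21, a jasmonate oxidase gene, was higher by 3.05 ± 0.33 in ceh1/eds16 against eds16 (adjusted p = 1.16e-06) and by 2.42 ± 0.33 in ceh1 against Col-0 (adjusted p = 1.74e-05). For perception and transcription 13 of 17 were higher and 2 lower in ceh1/eds16 against eds16, and 12 higher and 2 lower in ceh1 against Col-0. ORA47, an AP2/ERF factor known to activate synthesis genes, averaged 269.6 ± 53.7 in ceh1/eds16, 75.2 ± 43.6 in ceh1, 23.6 ± 3.18 in eds16 and 15.3 ± 3.13 in Col-0. It was higher with ceh1 by 3.45 ± 0.30 in the eds16 background (adjusted p = 6.08e-08) and by 2.1 ± 0.30 in the wild-type background (adjusted p = 2.16e-05), and higher in ceh1/eds16 than in ceh1 by 1.95 ± 0.30 (adjusted p = 0.000348). The repressor genes JAZ1 and JAZ5 were higher by 2.89 ± 0.22 and 3.25 ± 0.22 in ceh1/eds16 against eds16 (adjusted p = 1.17e-08 and 3.02e-09) and by 2.88 ± 0.22 and 2.70 ± 0.22 in ceh1 against Col-0 (adjusted p = 2.33e-08 and 4.78e-08).

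Response genes were called in both directions. Of 7, 4 were called higher and 2 lower in ceh1/eds16 against eds16, and 2 higher and 1 lower in ceh1 against Col-0. All tested genes were called at 22.1% higher and 20.2% lower in the first comparison, and at 25.2% and 25.0% in the second. The 2 of 7 called higher in ceh1 against Col-0 were thus near the share of all tested genes. PDF1.2A, a defensin gene of the joint jasmonate and ethylene branch, read 1120.5, 756 and 2153 in ceh1/eds16, 13.6, 17.9 and 8.97 in ceh1, 48.0, 57.2 and 33.1 in eds16, with 20.2, 17.8 and 15.4 in Col-0. It stood far above every other library in ceh1/eds16 alone, with an interaction of 5.15 ± 0.45 (adjusted p = 9.49e-06). VSP2, a storage protein gene of the MYC branch, averaged 733 ± 66.5 in ceh1/eds16, 579 ± 74.7 in ceh1, 2114.5 ± 1282 in eds16 and 474 ± 131 in Col-0. It was lower in ceh1/eds16 than in eds16 (log2 fold change -1.32 ± 0.33, adjusted p = 0.00354) and higher in eds16 than in Col-0 (log2 fold change 1.98 ± 0.33, adjusted p = 0.00254). TAT3, a tyrosine aminotransferase gene, averaged 463 ± 13.4 in ceh1/eds16, 792 ± 84.4 in ceh1, 43.9 ± 1.68 in eds16 and 82.9 ± 20.2 in Col-0, and was higher by 3.37 ± 0.16 in ceh1/eds16 against eds16 (adjusted p = 5.36e-11) and by 3.26 ± 0.16 in ceh1 against Col-0 (adjusted p = 1.71e-10).

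Markers of other organs and tissues moved with ceh1 as well. The 5 leaf markers summed to 100111 to 146312 in ceh1/eds16 and 98292.5 to 115706.5 in ceh1, against 214099 to 229955 in eds16 and 234219 to 261867 in Col-0, and all 5 were called lower in both ceh1 comparisons. The 5 flower markers (AP1, AG, PI, AP3 and SEP3) summed to 50.7 to 75.6 in ceh1/eds16 and 19.9 to 67.2 in ceh1, against 228 to 271 in eds16 and 124 to 164 in Col-0, and all 5 were called lower in both. The 7 vascular markers summed to 800.5 to 905 in ceh1/eds16 and 815 to 1095.5 in ceh1, against 1631 to 2028.5 in eds16 and 1943 to 2245 in Col-0, again all called lower. Of the 6 root markers 1 passed the filter, PYK10, at 796.5 ± 86.0 in ceh1/eds16, 808 ± 125 in ceh1, 205 ± 16.8 in eds16 and 153 ± 37.3 in Col-0, while EXPA7 was at 0 in all 12 libraries. Between the backgrounds, 3 markers were also called for the interaction: the leaf marker CA1 at 1.60 (adjusted p = 5.66e-05), the leaf marker LHCB2.1 at -0.73 (adjusted p = 0.0396) and the xylem marker XCP1 at -1.07 (adjusted p = 0.0172). In ceh1/eds16 against ceh1, CA1 was called higher (1.49, adjusted p = 4.19e-07), and LHCB1.1 (-0.61, adjusted p = 0.0345), LHCB2.1 (-1.03, adjusted p = 0.000101) and XCP1 (-0.73, adjusted p = 0.00911) were called lower. The part of these shifts in the values of the 10 genes was not tested.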

How the data were processed

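The authors deposited 1 table of a signal per gene and library, and per the submitters' processing notes TopHat2, DESeq2 and the TAIR10 build were used (the sources used here do not give versions). The signal is the read count divided by 1 size factor per library: in all 12 libraries 100% of the values were whole multiples of 1 step within 0.01, so whole reads could be recovered. Reads in genes numbered from 4.99 M to 18.08 M per library, and 4115 of 33602 genes had none. Genes with few reads have the widest errors.

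Genes with a mean of at least 10 were tested (18289) on log2(signal + 1) with limma 3.58.1 in R 4.3.3, with a variance trend, in 1 model of 4 group means. The model had 8 residual and 8.69 prior degrees of freedom. Tests were two-sided with Benjamini-Hochberg adjustment over all tested genes. The 5 contrasts were ceh1/eds16 against eds16, ceh1 against Col-0, their difference, eds16 against Col-0 and ceh1/eds16 against ceh1. The fit was tested on simulated data. Alternatives were other pseudocounts, filters, scalings and variance models, the replicate block, each library left out, a fold change of at least 2, and edgeR 4.0.16 and DESeq2 1.42.0 on the recovered reads.

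The 10 genes and the lists were chosen with earlier results of these data known. Other jasmonate genes were named as up to 4 of a list per comparison, those with the largest change among the called with a mean of at least 50 in the higher group, or the whole list where up to 4 were tested. Likeness was searched for LOX2, LOX4, AOS and AOC3, with the 3 genes of highest r each. Symbols, lengths, coordinates and sequences came from RefSeq TAIR10.1, whose loci carry the same identifiers as the table. Genes without a symbol there were counted but not named.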

Additional observations from a re-analysis of the deposited data

Results flagged for a closer look

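The effect of ceh1 on the AOS transcript differed between the backgrounds. The effect against eds16 minus the effect against Col-0 was 1.08 on the log2 scale (adjusted p for the interaction 0.00367, limma). AOS averaged 1750.1 ± 347.5 in ceh1/eds16 and 759 ± 57.0 in ceh1, against 1486 ± 117.5 in eds16 and 1379 ± 123 in Col-0 (SD, n = 3 each). The interaction was called under all 24 alternatives fitted for it, with values from 0.92 (without ceh1/eds16 replicate 3) to 1.18 (without ceh1/eds16 replicate 1) and adjusted p up to 0.0202 (no variance trend).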

How the results depend on the processing

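Of 387 counts of called genes recomputed under the alternatives, 367 stayed within 1.5 times their value. Requiring a fold change of at least 2 left, of the 10 genes, 5 higher and 0 lower in ceh1/eds16 against eds16. It left 3 higher and 0 lower in ceh1 against Col-0 and 0 higher in eds16 against Col-0. Of the 58 other jasmonate genes it left 26 of 46 calls in ceh1/eds16 against eds16 and 18 of 37 in ceh1 against Col-0. In eds16 against Col-0 it left 5 of 9 calls, which were 7 higher and 2 lower before. In ceh1/eds16 against ceh1 it left 8 of 18, which were 17 higher and 1 lower before. Without the rule 4.6% and 10.2% of all tested genes were called in these last 2 comparisons. The shares of all tested genes with the rule were not counted for them. DESeq2 called 9 other genes for the interaction (7 positive, 2 negative), where limma called 4. With 1 library left out at a time, members called lower in ceh1/eds16 against eds16 ranged from 0 (without eds16 replicate 1 or 2) to 1. Members called for the interaction ranged from 1 to 2 and in eds16 against Col-0 from 1 to 2. Other jasmonate genes ranged from 3 to 16 for the interaction, with 16 without ceh1/eds16 replicate 3, and from 5 to 14 in eds16 against Col-0, with 14 without the same library and 5 without eds16 replicate 2, Col-0 replicate 1 or Col-0 replicate 2. Without ceh1/eds16 replicate 3 the calls over all tested genes rose as well, from 891 to 3013 for the interaction and from 841 to 1781 in eds16 against Col-0. The causes were not tested.

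The differences that changed sign were all uncalled. LOX6 in the interaction was -0.016 at equal upper quartile, -0.10 at equal library total and -0.067 under quantile normalization, and ranged from -0.10 (without ceh1 replicate 2) to 0.14 (without ceh1 replicate 3) with 1 library left out. JAR1 in the interaction was -0.025, -0.11 and -0.089 under the same scalings and ranged from -0.040 (without Col-0 replicate 1) to 0.051 (without eds16 replicate 2), and in ceh1 against Col-0 it was 0.035 at equal library total. AOC4 in eds16 against Col-0 was 0.014, 0.014 and 0.034 under the 3 scalings and ranged from -0.072 (without eds16 replicate 2) to 0.085 (without eds16 replicate 3). AOC3 ranged from -0.12 (without eds16 replicate 3) to 0.42 (without Col-0 replicate 1) in the interaction and from -0.028 (without Col-0 replicate 1) to 0.52 (without eds16 replicate 3) in eds16 against Col-0. OPR3 in the interaction ranged from -0.0036 (without ceh1/eds16 replicate 3) to 0.29 (without ceh1/eds16 replicate 1), and LOX6 in ceh1/eds16 against ceh1 ranged from -0.21 (without ceh1 replicate 2) to 0.030 (without ceh1 replicate 3).

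Same-numbered libraries showed little positive correlation: 1 of 18 such pairs had a correlation of deviations over 0.1, in a range from -0.448 to 0.118. The lowest values were those of ceh1/eds16 with ceh1, at -0.448 for replicate 2 and -0.44 for replicate 3. Differently numbered pairs were not compared, so structure across them was not tested. With the replicate block 7 and 1 of the 10 genes were called higher and lower in ceh1/eds16 against eds16 and 6 and 1 in ceh1 against Col-0, as without it, and JAZ9 in eds16 against Col-0 was not called (adjusted p = 0.0545). Over all genes edgeR called 7793, 9309, 880, 582 and 2285 genes in ceh1/eds16 against eds16, ceh1 against Col-0, the interaction, eds16 against Col-0 and ceh1/eds16 against ceh1, and DESeq2 called 7689, 9121, 1313, 965 and 2404. The interaction count of 891 was 593 with no filter, 554 with no trend, 566 with the block and 348 to 3013 with 1 library left out. For eds16 against Col-0 the count of 841 was 512 with no trend, 1513 with only the groups compared, 538 with the block and 237 to 1781 with 1 library left out. For ceh1/eds16 against ceh1 the count of 1860 ranged from 1024 to 3247, and equal library totals made 38.4% of its calls higher, against 58.3%. For the interaction these shares were 35.9% at equal library total and 52.4% under quantile normalization, against 63.3%. With 3 libraries a genotype the smallest differences here are not resolved, and the lowest read numbers, 12 for LOX4 and 16 for AOC3 in 1 library, carry the widest errors.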
